A study of Homo sapiens with 4 samples.

Results

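The glucose transporter SLC2A1 and 9 enzymes that carry glucose to lactate (HK2, GPI, PFKP, ALDOA, GAPDH, PGK1, ENO1, PKM and LDHA) were followed through 4 RNA libraries. They were chosen by gene symbol, and 10 of the 61806 genes in the table carry these symbols. Cells of MDA-MB-231, a human breast cancer line, and MDA-MB-435, a human melanoma line (the breast line and the melanoma line), were either left as controls or treated with CPYPP, a small molecule that blocks the binding of the exchange factor DOCK2 to Rac1 and that the study used to bring about paraptosis, a cell death with large vacuoles. The dose was 10 µM by the treatment text and the exposure 6 h, the genotype is given as wild type for both lines, and what the control cells received is not stated. The question for these genes was whether their mRNA moved with CPYPP, and whether it did so in both lines.

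Each of the 4 conditions had 1 library, so the spread between cultures could not be measured and no test of CPYPP was possible within a line. A comparison of the reads of 2 libraries compares those libraries. The 95% intervals given for a fold within a line are exact binomial intervals that cover counting error only. A test was possible only for the effect common to both lines, in which each line served as a block. Its spread was the difference between the lines in their response, moderated by edgeR toward a value shared over genes. A gene can therefore pass although its response differs between the lines. The libraries held 22359735 (MDA-MB-231 control), 17196385 (MDA-MB-231 CPYPP), 22663954 (MDA-MB-435 control) and 19489282 (MDA-MB-435 CPYPP) counted reads, and folds were taken on counts scaled by edgeR's TMM factors. The line labels were set against marker genes. SOX10 and S100B, genes of the melanocyte lineage, had 0 or 1 count in the breast line and 707 to 3031 counts in the melanoma line. The pigment gene DCT had 1 to 3 and 464 to 658 counts. The pigment genes TYR, MLANA, PMEL and TYRP1 had at most 16 counts in the melanoma line. The epithelial genes EPCAM, CDH1 and KRT19 had 287 to 3953 counts in the breast line and at most 4 in the melanoma line. KRT8 had 9549 to 12813 and 310 to 522 counts, and KRT7 8719 to 14488 and 391 to 625. Some other markers did not set the lines apart. KRT18 had 5653 to 8212 counts in the breast line and 4077 to 5740 in the melanoma line. GATA3 had 88 to 242 and 83 to 187, and MITF 690 to 1585 and 809 to 1405. PMEL was lower in the melanoma line than its 29 to 34 counts in the breast line. ESR1, listed as a breast marker, was higher in the melanoma line, at 20 to 24 counts against 2 to 9. Leukocyte markers summed to at most 2.05 CPM (counts scaled to library size) in any library. In bulk RNA, less RNA per cell and fewer cells of a kind cannot be told apart.

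Glycolysis splits glucose into pyruvate in the cytosol and yields ATP and NADH on the way, and lactate dehydrogenase turns pyruvate into lactate and so restores NAD+. Entry of glucose through SLC2A1 (GLUT1) and its phosphorylation by hexokinase are the first steps and are among the controlled ones, together with phosphofructokinase and pyruvate kinase. Many tumours run this pathway at a high rate in the presence of oxygen, and several of its genes are textbook targets of the hypoxia factor HIF-1 and of MYC.

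The promoters of 4 members are shown because they set side by side the members with the lowest folds under CPYPP (SLC2A1 and HK2) and those with the most places that match the letters of the HIF core motif (LDHA and PGK1), whose folds were close to 1. Each is the RefSeq window of 300 bases around a transcription start on GRCh38.p14, 5′ to 3′ on the gene's strand. They lie at chr1:42958819-42959118 (minus strand), chr2:74833877-74834176 (plus strand), chr11:18394313-18394612 (plus strand) and chrX:78103998-78104297 (plus strand). Capitals mark ACGTG and GCGTG on either strand, read on the other strand as CACGT and CACGC.
SLC2A1: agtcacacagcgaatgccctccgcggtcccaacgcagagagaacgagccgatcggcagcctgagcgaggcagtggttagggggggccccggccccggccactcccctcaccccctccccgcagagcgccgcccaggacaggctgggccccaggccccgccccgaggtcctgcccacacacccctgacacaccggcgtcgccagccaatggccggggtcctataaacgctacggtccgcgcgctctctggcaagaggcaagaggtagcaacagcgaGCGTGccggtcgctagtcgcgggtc
HK2: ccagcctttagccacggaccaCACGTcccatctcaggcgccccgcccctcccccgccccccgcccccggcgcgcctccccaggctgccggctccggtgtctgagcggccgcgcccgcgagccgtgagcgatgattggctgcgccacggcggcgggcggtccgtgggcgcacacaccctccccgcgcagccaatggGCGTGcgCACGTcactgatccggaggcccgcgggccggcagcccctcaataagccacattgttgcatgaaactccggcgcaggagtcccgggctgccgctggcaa
LDHA: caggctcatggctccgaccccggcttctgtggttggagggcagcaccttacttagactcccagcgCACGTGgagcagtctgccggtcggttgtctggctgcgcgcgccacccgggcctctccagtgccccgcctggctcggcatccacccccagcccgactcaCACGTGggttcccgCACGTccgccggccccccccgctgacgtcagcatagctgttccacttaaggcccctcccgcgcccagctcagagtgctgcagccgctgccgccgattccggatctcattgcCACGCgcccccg
PGK1: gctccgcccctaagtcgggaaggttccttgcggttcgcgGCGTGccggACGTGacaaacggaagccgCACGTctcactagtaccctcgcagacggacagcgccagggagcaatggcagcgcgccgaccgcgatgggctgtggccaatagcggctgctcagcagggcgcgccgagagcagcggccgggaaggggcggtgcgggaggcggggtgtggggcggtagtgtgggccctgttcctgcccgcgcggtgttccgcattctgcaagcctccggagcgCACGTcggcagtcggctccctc
The motif search covered every promoter in the same table, and 1 window for each of the 10 members. This was the window that holds the deposited gene start, or the first listed where none does. The windows of SLC2A1, HK2, ALDOA and LDHA hold that start, and those of the other members, PGK1 among them, do not. PFKP had 4 windows to choose from, ALDOA 3, and HK2 and LDHA 2 each. ACGTG was found in 6 members and in 21.4% of 35114 promoters, GCGTG in 6 members and in 36.5%, and either of them in 9 members and in 48.4%. CACGTG, the E-box that MYC and the glucose-sensing factors MLX and MLXIP can bind and which holds ACGTG, was found in the promoters of GAPDH and LDHA and in 7.26% of all. With the palindrome CACGTG counted as 1 place, LDHA and PGK1 held 4 places that match either motif, HK2 3, ENO1 2, SLC2A1, GPI, ALDOA, GAPDH and PKM 1 each, and PFKP none in this window. The single match of SLC2A1 began 26 bases into the transcript, while the 3 of HK2 began 229, 55 and 48 bases before its start. A match in these letters is a description of the window and not a bound site.

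SLC2A1 fell with CPYPP, and it was the member of the 10 that moved most. HK2 was lower in each line by a smaller amount that did not pass the test. With TMM factors over the 4 libraries, the 8 enzymes from GPI to LDHA lay within 0.19 of no change on the log2 scale in each line. The members' median log2 fold change was 0.0286 in the breast line and -0.00726 in the melanoma line, against -0.0209 and -0.0905 for all genes tested.

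SLC2A1 (ENSG00000117394, chr1:42925353-42958893, minus strand) encodes the basal glucose transporter of most cells. It had 12464 counts in the breast-line control and 5103 after CPYPP, and 3761 counts in the melanoma-line control and 1572 after CPYPP. After scaling, the control was 1.80-fold higher than the CPYPP library in the breast line (95% interval 1.74 to 1.86) and 1.96-fold higher in the melanoma line (1.84 to 2.07). Both treated libraries lay below their own control by nearly the same factor, although the untreated melanoma-line library started lower than the treated breast-line library. Over both lines the log2 fold change was -0.91 with a standard error of 0.11 and an adjusted p of 0.0012 (edgeR's quasi-likelihood test, Benjamini-Hochberg over 16801 genes), with a 95% interval of -1.15 to -0.66. SLC2A1 was thus the only member called in this test, which called 2.85% of all genes tested lower and 4.39% higher.

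The change in SLC2A1 was in the lower part of the transcriptome without being at its edge. In the breast line, 7.06% of the genes tested had a log2 fold change at or below its own, and in the melanoma line 11.5% did. It was past a fold of 1.5 in both lines, as were 12.1% of the genes tested in the breast line and 20.7% in the melanoma line in the lower direction. With TMM factors no member was past the study's fold of 2, although SLC2A1 was in the melanoma line with total counts (log2 fold change -1.04). This is a bound that 10.8% of genes passed in the breast line and 14.4% in the melanoma line in either direction.

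HK2 (ENSG00000159399, chr2:74834127-74893359, plus strand) encodes a hexokinase that can bind to mitochondria and is induced in many tumours. It had 3069 and 1843 counts in the control and CPYPP libraries of the breast line and 1954 and 1151 in those of the melanoma line. The control was 1.23-fold higher in the breast line (1.16 to 1.30) and 1.39-fold higher in the melanoma line (1.29 to 1.49). These differences exceeded counting error in each line, and the 2 lines' intervals overlapped. Over both lines the log2 fold change was -0.38 with a standard error of 0.114 and an adjusted p of 0.0728, so that HK2 was not called. Of the genes tested, 24.0% in the breast line and 25.2% in the melanoma line had a log2 fold change at or below that of HK2. The call was sensitive to the scaling, with an adjusted p of 0.014 when total counts replaced TMM factors, 0.0342 with upper-quartile factors and 0.0308 when protein-coding genes alone were fitted.

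**Figure D1:**
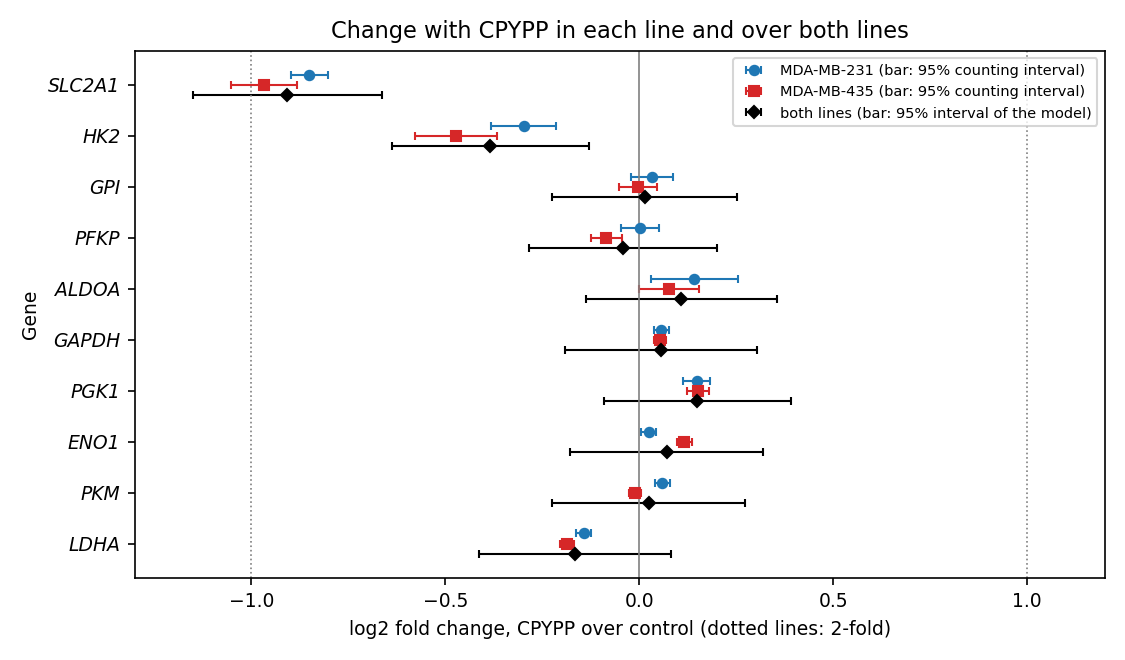
Log2 fold change of each member with CPYPP over control in MDA-MB-231 (circles) and MDA-MB-435 (squares), with 95% counting intervals, and over both lines (diamonds), with the 95% interval of the edgeR model. SLC2A1 stands at -0.85 and -0.97, HK2 at -0.30 and -0.47, and the other 8 members within 0.19 of 0.

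The 3 enzymes that turn glucose 6-phosphate into triose phosphates showed little difference. GPI (chr19:34359480-34402413, plus strand), the isomerase that makes fructose 6-phosphate, had 6466 and 4881 counts in the breast line and 7623 and 6213 in the melanoma line, control first. Its fold was 1.02 (0.986 to 1.06) and 0.997 (0.964 to 1.03), so that neither line's interval lay clear of 1. PFKP (chr10:3066333-3137718, plus strand), the platelet-type phosphofructokinase of the committed step, had 7796 and 5761 counts in the breast line and 11357 and 8749 in the melanoma line. The fold was 1.00 (0.968 to 1.04) and 0.943 (0.917 to 0.969), and only the melanoma-line interval lay below 1. ALDOA (chr16:30064164-30070457, plus strand), the aldolase, had 1434 and 1168 counts in the breast line and 3010 and 2594 in the melanoma line, with folds of 1.10 (1.02 to 1.19) and 1.05 (1.00 to 1.11). The counts of ALDOA were low for an abundant enzyme, and 42.3% of its exon bases in GENCODE v29 also lie in an exon of a protein-coding gene on the same strand, ENSG00000285043, which had 49 to 194 counts. How reads shared by such genes were assigned is not given in the sources used here, so the level of ALDOA is uncertain.

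The 4 enzymes from GAPDH to PKM, which turn triose phosphate into pyruvate, were with LDHA the most abundant members. GAPDH (chr12:6534512-6538374, plus strand), the dehydrogenase that makes NADH, had 49216 and 37788 counts in the breast line and 72054 and 61086 in the melanoma line, and its fold was 1.04 in both lines (1.03 to 1.05 in each). PGK1 (chrX:77910739-78129295, plus strand), the kinase of the first ATP-yielding step, had 14262 and 11662 counts in the breast line and 22018 and 19993 in the melanoma line. Its fold was 1.11 in both lines (1.08 to 1.14 and 1.09 to 1.13), the highest among the members. The common log2 fold change of PGK1 was 0.15 with an adjusted p of 0.492, so that this difference was within the spread of the model although it exceeded counting error.

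ENO1 (chr1:8861000-8879190, minus strand), the enolase, had 53259 and 39971 counts in the breast line and 45782 and 40561 in the melanoma line, with folds of 1.02 (1.00 to 1.03) and 1.08 (1.07 to 1.10). The lines' counting intervals did not overlap for ENO1, nor for PKM and LDHA, and overlapped for the other 7 members, while they did not overlap for 27.6% of the genes tested in both lines. PKM (chr15:72199029-72231819, minus strand), the pyruvate kinase of muscle and tumour cells, had 51113 and 39320 counts in the breast line and 80105 and 64974 in the melanoma line, with folds of 1.04 (1.03 to 1.06) and 0.993 (0.982 to 1.00). Counts per gene cannot separate the PKM1 and PKM2 splice forms.

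LDHA (chr11:18394560-18408425, plus strand), the lactate dehydrogenase subunit that prevails in tumours, had 57984 and 38739 counts in the breast line and 53008 and 38069 in the melanoma line. Its fold was 0.905 (0.894 to 0.917) and 0.879 (0.867 to 0.890). LDHA was the third member, beside SLC2A1 and HK2, whose counting interval lay below 1 in both lines, as did that of 14.6% of the genes tested in both lines, and its common log2 fold change of -0.16 had an adjusted p of 0.457. In the other direction, 4 members (ALDOA, GAPDH, PGK1 and ENO1) had intervals above 1 in both lines, as did 15.9% of those genes. For the 8 members from GPI to LDHA, the common adjusted p with TMM factors ran from 0.457 to 0.965. With these factors 0 of them had an unadjusted p under 0.05 by edgeR, and DESeq2 called 0 of them. Their standard errors of about 0.11 leave room for changes of some size in either direction, as with ENO1, whose 95% interval ran from -0.18 to 0.32. Small differences of this kind also hang on the scaling. Scaling by total counts moved every log2 fold change by -0.0597 in the breast line and by -0.0736 in the melanoma line. It changed the sign of 4 members in the breast line and of 1 in the melanoma line. With total counts LDHA was at -0.20 in the breast line and at -0.26 in the melanoma line. The common log2 fold change of LDHA was then -0.23, with an edgeR p of 0.0469 unadjusted and 0.203 adjusted.

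Processed copies of these genes took few reads. The 65 pseudogenes of GAPDH in the table had 91 to 320 counts in all per library, the 6 of LDHA had 14 to 46, and those of each other member at most 8. Reads that match the parent gene and a copy equally well could have been lost from either.

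Levels were compared between genes as FPKM, the counts scaled for library size and for the exon length given in the table. In the breast-line control, GAPDH stood first at 917 FPKM, followed by ENO1 (456), LDHA (429), PKM (266), PGK1 (117), SLC2A1 (84.1), PFKP (44.8), GPI (27.0), HK2 (23.2) and ALDOA (16.7). In the melanoma-line control the order was GAPDH (1269), PKM (394), LDHA (371), ENO1 (370), PGK1 (171), PFKP (61.7), ALDOA (33.2), GPI (30.1), SLC2A1 (24.0) and HK2 (13.9). The levels of LDHA and ENO1 in that library, and those of neighbours such as GPI and HK2 in the other, lay too close to rank without replicates. GAPDH held the top place in all 4 libraries, and SLC2A1 the sixth in both breast-line libraries and the ninth in both melanoma-line libraries. After CPYPP, SLC2A1 stood at 46.7 FPKM in the breast line, close to PFKP at 44.8, and at 12.3 FPKM in the melanoma line, close to HK2 at 10.0.

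**Figure D2:**
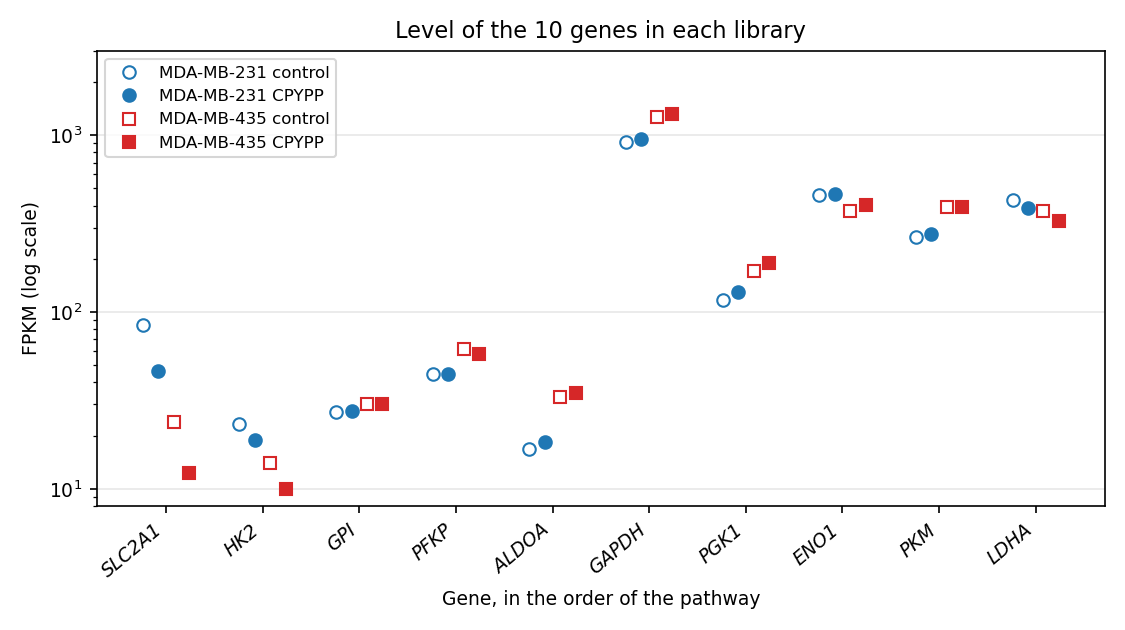
FPKM of each member on a log scale in the 4 libraries, with the members in the order of the pathway, open marks for controls and filled marks for CPYPP. GAPDH is the highest in every library (917 to 1317 FPKM), and SLC2A1 spans the widest range, from 84.1 FPKM in the MDA-MB-231 control to 12.3 FPKM in MDA-MB-435 after CPYPP.

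Among the members, SLC2A1 differed most between the untreated lines. It was 3.50-fold higher in the breast line than in the melanoma line (95% counting interval 3.38 to 3.64), and HK2 was 1.66-fold higher (1.57 to 1.76). ENO1 and LDHA were 1.23-fold (1.21 to 1.25) and 1.16-fold (1.14 to 1.17) higher in the breast line. The other 6 members were higher in the melanoma line, from 1.11-fold for GPI (1.08 to 1.15) to 1.98-fold for ALDOA (1.86 to 2.12), with PFKP, GAPDH, PGK1 and PKM between 1.38-fold and 1.48-fold. SLC2A1 was the sole member past a fold of 2 with TMM factors, and with total counts ALDOA was as well (2.07-fold). In all, 21.5% of the genes tested between the untreated lines were past that bound with the breast line higher and 23.8% with the melanoma line higher.

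The members together took 1.15% of all counted reads in the breast-line control and 1.08% after CPYPP, and 1.33% and 1.26% in the melanoma line. Without SLC2A1 and HK2 the shares were 1.08% and 1.04% in the breast line and 1.30% and 1.24% in the melanoma line. Within the members' own reads, SLC2A1 held 4.85% (exact binomial interval 4.77 to 4.93) in the breast-line control and 2.74% (2.67 to 2.82) after CPYPP. In the melanoma line it held 1.25% (1.21 to 1.29) and 0.642% (0.610 to 0.674). HK2 held 1.19% and 0.990% of the members' reads in the breast line and 0.650% and 0.470% in the melanoma line. These shares do not use any scaling between libraries, and both genes held less of the members' reads in each treated library.

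The ratio of a member to its sister gene is likewise free of the scaling between libraries. SLC2A3 (GLUT3), a transporter of high affinity for glucose that neurons rely on, had 561 and 1054 counts in the breast line and 493 and 606 in the melanoma line. It rose with CPYPP, by 2.55-fold in the breast line (2.30 to 2.83) and 1.5-fold in the melanoma line (1.33 to 1.70), with a common log2 fold change of 0.97, a standard error of 0.186 and an adjusted p of 0.0118. The ratio of SLC2A1 to SLC2A3 in FPKM went from 20.4 to 4.44 in the breast line and from 7.0 to 2.38 in the melanoma line, and SLC2A1 remained the more abundant of the pair in every library. HK1, the hexokinase found in most tissues, was the more abundant hexokinase in every library, at 1.91 times HK2 in the breast-line control and 2.86 times after CPYPP, and at 3.77 and 5.20 times in the melanoma line. HK1 itself had a fold of 1.22 in the breast line (1.18 to 1.26) and 0.992 in the melanoma line (0.960 to 1.03), with a common log2 fold change of 0.14 and an adjusted p of 0.571.

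**Figure D3:**
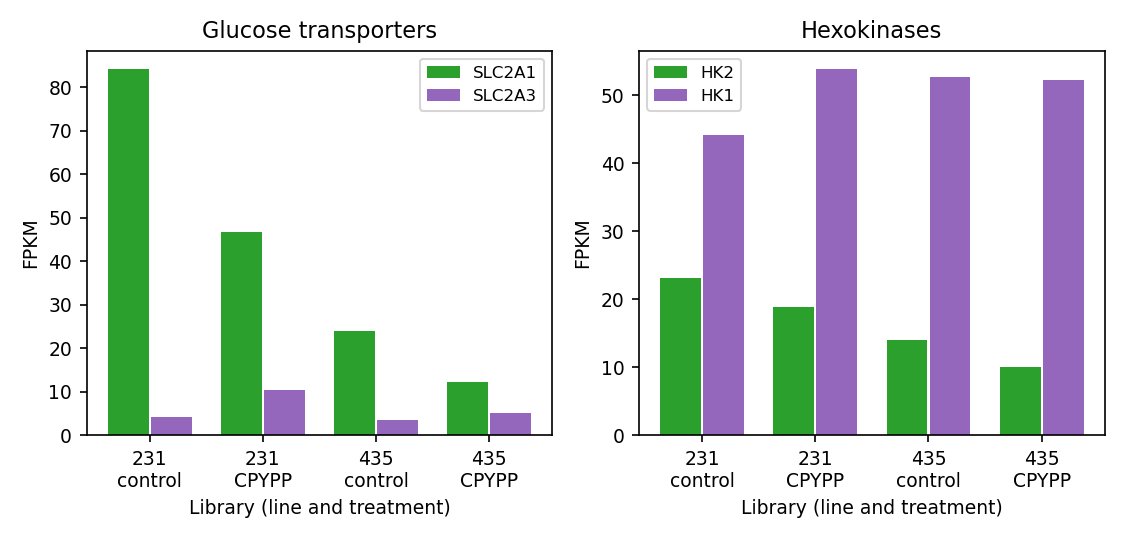
FPKM of SLC2A1 and SLC2A3 (left) and of HK2 and HK1 (right) in the 4 libraries, 1 bar per gene and library, without error bars as there was 1 library per condition. SLC2A1 goes from 84.1 to 46.7 FPKM in MDA-MB-231 and from 24.0 to 12.3 in MDA-MB-435 while SLC2A3 goes from 4.13 to 10.5 and from 3.43 to 5.16, and HK1 stays above HK2 throughout.

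The other members kept their rank over their sister genes. PFKP was at 5.49 and 5.94 times PFKL in the breast line and at 6.20 and 6.58 times in the melanoma line, and at 3.07 to 4.94 times PFKM over the 4 libraries. LDHA was at 7.38 and 7.13 times LDHB in the breast line and at 5.35 and 4.29 times in the melanoma line. ENO1 over ENO2 and ALDOA over ALDOC set the lines apart more than the treatment did, at 18.2 and 17.8 against 143 and 130 for the enolases and at 7.64 and 6.81 against 30.6 and 29.5 for the aldolases. The steps without a member, TPI1 and PGAM1, had common log2 fold changes of 0.0316 and 0.0068 with adjusted p of 0.918 and 0.984.

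Beyond the members, 12 lists of genes around glucose use were examined, of which 98 genes could be tested over both lines. In the common effect 9 of the 98 rose, 2 fell and 87 did not pass, against 4.39% of all genes tested called higher and 2.85% called lower. The median common log2 fold change of these 98 was 0.0303, against -0.0426 for all genes tested and 0.0196 for the members. Of the other glucose transporters 6 could be tested, and SLC2A3 alone passed. None of the 9 other isozymes tested passed, nor did the 4 genes tested for steps without a member, the 5 of gluconeogenesis or the 7 hypoxia factors. At an unadjusted p under 0.05, edgeR placed 2 of the other isozymes and 1 hypoxia factor higher and 0 genes of the other groups in either direction, and DESeq2 called 0 genes in these 4 groups.

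The enzymes that set fructose 2,6-bisphosphate, the activator of phosphofructokinase, held 4 tested genes, of which PFKFB3 rose. PFKFB3, the form with the strongest kinase activity, had 1683 and 2177 counts in the breast line and 3381 and 3449 in the melanoma line, with folds of 1.75 and 1.25 and a common log2 fold change of 0.56 (adjusted p 0.0306). PFKFB4, its relative, had folds of 1.10 and 0.553 and did not pass (adjusted p 0.411).

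Transport and use of the end products held 7 and 12 tested genes. SLC16A1 (MCT1), a lactate and pyruvate carrier, rose by a common log2 fold change of 0.87 (adjusted p 0.0125). It had 8 and 9 counts in the breast line and 1988 and 3016 in the melanoma line, so that this value came from the melanoma line, where the fold was 1.86. SLC16A3 (MCT4), the carrier linked to lactate export and named after its values were seen, had 4032 and 2747 counts in the breast line and 280 and 113 in the melanoma line. In FPKM it went from 19.5 to 18.0 in the breast line and from 1.28 to 0.632 in the melanoma line. The more abundant of these 2 carriers was SLC16A3 in the breast line and SLC16A1 in the melanoma line. PDP1, the phosphatase that switches pyruvate dehydrogenase on, fell from 2057 to 801 counts in the breast line and from 9163 to 1961 in the melanoma line, with a common log2 fold change of -1.44 (adjusted p 0.0022). After scaling, it had a log2 fold change of -0.92 in the breast line and -1.93 in the melanoma line. It was the sole gene of the 12 around pyruvate dehydrogenase to pass.

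TXNIP, an arrestin that takes glucose transporters off the cell surface and whose gene is switched on by glucose through MLX and its partners, fell most among the genes of these lists. It had 8408 and 1550 counts in the breast line and 1505 and 306 in the melanoma line, a fold of 0.25 in the breast line and 0.249 in the melanoma line. The common log2 fold change was -2.0 with a standard error of 0.114 and an adjusted p of 8.24e-06. Its relative ARRDC4, another gene switched on by glucose, had folds of 1.29 and 1.89 and did not pass (adjusted p 0.062). MYC had folds of 1.11 and 2.14 and did not pass (adjusted p 0.0733).

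Of the 19 hypoxia-induced genes outside glycolysis, 4 rose, none fell and 15 did not pass, beside the 4.39% of all genes called higher. ADM, which encodes the vessel-widening peptide adrenomedullin, had 1120 and 3362 counts in the breast line and 1252 and 1796 in the melanoma line and rose by 4.07-fold and 1.76-fold (common log2 fold change 1.42, adjusted p 0.0047). The others that rose were P4HA2 and PLOD2, which modify collagen, and KDM3A, a histone demethylase, with common log2 fold changes of 0.61, 0.58 and 0.59. HIF1A, the oxygen-regulated subunit of HIF-1, had folds of 1.23 and 1.18 and a common log2 fold change of 0.27 (adjusted p 0.181).

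In the side branches, GBE1, the branching enzyme of glycogen, rose by a common log2 fold change of 0.57 (adjusted p 0.012) and was the sole gene of 12 around glycogen to pass. TALDO1, the transaldolase of the pentose phosphate pathway, rose from 3731 to 3789 counts in the breast line and from 4329 to 6720 in the melanoma line before scaling, with folds of 1.38 and 1.9 and a common log2 fold change of 0.69 (adjusted p 0.0108), the only change called among 7 genes of that pathway.

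**Figure D4:**
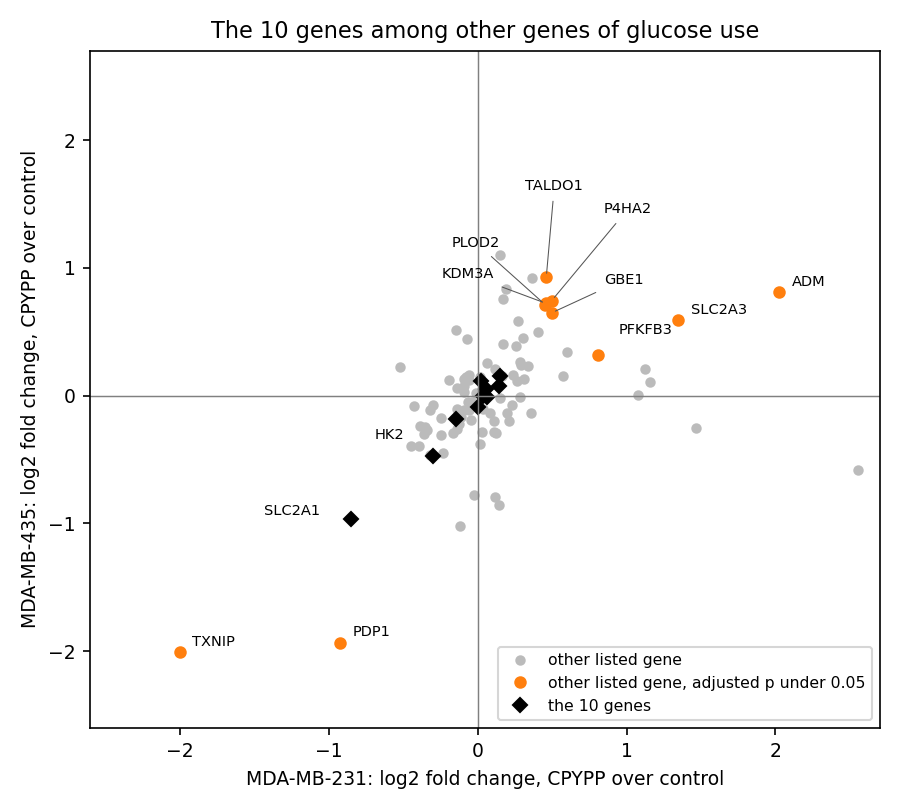
Log2 fold change with CPYPP in MDA-MB-231 (horizontal) against MDA-MB-435 (vertical) for the 10 members (diamonds) and 91 other listed genes (circles) with enough counts in both lines, orange where the common effect passed (SLC16A1, with under 10 counts in each MDA-MB-231 library, is not drawn). SLC2A1 lies in the lower left with TXNIP and PDP1, while most members sit at the centre.

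The genes whose pattern over the 4 libraries was most like that of SLC2A1, by the Euclidean distance of centred log2 CPM among 7315 genes with a mean of at least 500 counts, were FMNL1 (distance 0.270), TRERF1 (0.292), STC1 (0.320), EVI2A (0.376) and CAV2 (0.396). For HK2 they were MLX (0.0348), CENPI (0.0656), STIL (0.0676), KIF2C (0.0757) and FLOT2 (0.0860). All 10 of these genes were lower after CPYPP in both lines. This largely follows from their choice by likeness to SLC2A1 and HK2, which were themselves lower there. With 4 libraries such likeness is a description only. None of the other 9 members was among the 5 genes nearest to SLC2A1 or to HK2.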

How the data were processed

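Poly(A) RNA was sequenced in 4 libraries, a control and a CPYPP library for each line. The authors deposited unnormalized whole read counts for 61806 genes with positions and exon lengths. The submitters' processing notes name cutadapt 1.9.1, HISAT2 2.2.1, HTSeq 0.6.1, DESeq2 and the build GRCh37.p13, but 58241 of the 58254 identifiers shared with GENCODE v29 overlap their GRCh38 positions, so coordinates are given as GRCh38. The strand setting is not given in the sources used here. The growth and treatment texts give MDA-MB-435 throughout, so lines were taken from each sample's cell line label.

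Counts were filtered with filterByExpr and scaled by TMM (edgeR 4.0.16, R 4.3.3). The factors ran from 0.961 to 1.05. Folds within a line used genes that reached 10 counts in a library of that line, set counts of 3 or fewer to 3, and carry 95% exact binomial (Clopper-Pearson) intervals (scipy 1.17.1, Python 3.11.15). At these depths a gene with 10 counts has an interval of several-fold, while those of the members are narrow. The common effect was fitted over 16801 genes with edgeR's quasi-likelihood test and the line as a block. The fit had 1 residual degree of freedom and a common dispersion of 0.0146. Moderation over genes raised the degrees of freedom to 10.3, so most of them were borrowed from other genes. The fit was also run on simulated counts, with the same dispersion for every gene and the same fold in both lines. That run cannot show how the test behaves where dispersion differs by gene or response differs by line. FPKM used the deposited exon lengths. DESeq2 1.42.0 served as an alternative. The figures were drawn with matplotlib 3.10.9.

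The members, the 12 lists (127 names, 126 of which are in the table) and the tests were chosen with earlier results of these data known. All members are named. From each list the text names the genes past 1.5-fold the same way in both lines. It also names those with an adjusted p-value under 0.05 in the common effect, and each member's main sister gene. Of the genes with the largest or smallest fold in a line, only some are named. Likeness used the 5 nearest genes. Scaling, filter, model and denominator were each varied, in 25 ways and 3 added after the data were seen.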

Additional observations from a re-analysis of the deposited data

Results flagged for a closer look

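The search covered the 10 members and listed genes picked by fold, by call, as a sister gene or for a step without a member. Of these, 4 had folds in opposite directions in the lines, with both counting intervals clear of 1. Over all genes tested in both lines, 5.71% did so. The other listed genes were not searched, and some of those searched were picked by fold, so the 4 cannot be set beside that share. The difference between the lines was not tested, since each condition had 1 library. None of the 10 members met this. LDHB, the heart-type lactate dehydrogenase subunit, had a log2 fold change of -0.0932 in the breast line and 0.13 in the melanoma line, a difference of -0.23 (breast line minus melanoma line). TPI1, the triose phosphate isomerase, had -0.0605 and 0.12, a difference of -0.18. DLD, the dihydrolipoamide dehydrogenase of the pyruvate dehydrogenase complex, had -0.19 and 0.12, a difference of -0.31. RPE, the ribulose phosphate epimerase of the pentose phosphate pathway, had -0.52 and 0.22, a difference of -0.74, and its counts were 1062 and 547 in the breast line and 2599 and 2481 in the melanoma line. The intervals cover counting error only.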

How the results depend on the processing

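The fall of SLC2A1 kept its direction under every alternative and its call under all but 1. Without a block for the line its common log2 fold change was -0.88 and its adjusted p 1.0, and that fit called 0 genes higher and 0 lower (167 at an unadjusted p under 0.05), while DESeq2 called 578 higher and 285 lower against 737 and 478 by edgeR. Of 21 genes followed through the model's alternatives, 12 lost their call without the block and none under the others. HK2 passed with total counts (-0.45, adjusted p 0.014), upper-quartile factors (-0.42, 0.0342) and protein-coding genes alone (-0.40, 0.0308), which made 2 members called in each, against 0 without the block. Genes called lower numbered 1087 with total counts, 812 with upper-quartile factors and 850 with genes of at least 1 count. The members' median log2 fold change in the breast line was -0.0311 with total counts and -0.0157 with upper-quartile factors, and in the melanoma line -0.0808 with total counts, 0.0368 with DESeq2 size factors and 0.0682 with TMM within the line (chosen after seeing the data), so that its sign hangs on the scaling. With total counts SLC2A1 was at -0.91 in the breast line and, past 2-fold, at -1.04 in the melanoma line, ALDOA was at 1.05 (log2) between the untreated lines, past 2-fold as well, and the members' median between the untreated lines at 0.37, against 0.31. Over protein-coding reads the members' shares were 1.18%, 1.12%, 1.36% and 1.29%. Genes past 2-fold in the breast line, 875 higher and 907 lower, came to 490 and 289 with at least 10 counts in both libraries and to 496 and 360 among protein-coding genes. In the melanoma line, 571 and 1805 came to 341 and 767 and to 316 and 779, and without a filter 1667 and 1026 genes were past 2-fold higher in the respective lines. No replicate could be left out, with 1 library per condition. No paired analysis was possible because the labels carry no replicate numbers, beyond the pairing by line that the block of the common effect already holds. Depth does not limit the members' folds, but the lack of replicates does.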

Other observations

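The deposited annotation gives the pathway term for glycolysis and gluconeogenesis to 192 genes with a symbol, a list taken after the data were seen. It holds 9 of the 10 members (all but SLC2A1) and 183 other genes. Of these others, 58 were tested over both lines, with a median common log2 fold change of -0.035. edgeR called 0 of them higher and 2 lower, against 2.85% of all genes called lower, and DESeq2, which tested 47 of them, also called 0 higher and 2 lower. At an unadjusted p under 0.05 edgeR placed 4 higher and 5 lower. The 2 that edgeR called lower, named after their values were seen, were MLPH, which takes part in melanosome transport, and ALDH1B1, a mitochondrial aldehyde dehydrogenase.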
